A study of Mus musculus with 12 samples.

Results

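Myocardium of mice after an experimental myocardial infarction (MI) was compared with myocardium of sham-operated mice when both received weekly prednisone. The comparison covered all genes and was defined from the sample labels alone: the 3 MI libraries of the weekly prednisone arm were set against its 3 sham libraries, 6 of the 12 libraries in the series. All animals were labelled as wild-type C57BL/6 male mice, about 10 weeks old when dosing began and about 16 weeks old at collection. Prednisone, a prodrug of the glucocorticoid prednisolone, was injected intraperitoneally once a week at 1 mg/kg at lights-on, beginning 2 weeks after surgery and continuing for 6 weeks, and tissue was taken 24 h after the final dose. The other 6 libraries, 3 sham and 3 MI, came from mice given weekly vehicle and served here for the shared estimate of spread and for the comparison of the infarction effect between treatments. The labels describe 1 myocardial sample per mouse and give neither infarct size nor the part of the ventricle sampled, so the share of scar in each piece is not known. Transcript abundances were deposited as TPM, a level per transcript scaled to the same total in each library. Summed by gene symbol, they gave 13158 genes that reached 1 TPM in 3 or more of the 12 libraries, and these were tested.

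After an infarction, dead cardiomyocytes are replaced by a collagen scar laid down by activated fibroblasts, while the surviving muscle works against a higher load. Loaded cardiomyocytes return to part of their foetal programme: they make the natriuretic peptides and the foetal myosin and actin isoforms, and lower genes of calcium cycling and of fatty acid oxidation. Glucocorticoids act through the glucocorticoid receptor, a ligand-activated transcription factor present in nearly all cardiac cells.

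In 2213 of the 13158 genes (16.8%) expression differed between MI and sham hearts under prednisone at a limma adjusted p under 0.05. Of these, 359 genes (2.73%) were higher and 1854 (14.1%) lower in the MI libraries, and 4011 genes (30.5%) passed an unadjusted p under 0.05. The genes higher in MI hearts included natriuretic peptides, foetal contractile isoforms and scar matrix proteins, and those lower included genes of calcium handling, ion channels, cell junctions and fuel oxidation. The split between rises and falls depended on the scale. After the libraries were rescaled by the median gene, 3490 genes (26.5%) were called, 1605 higher (12.2%) and 1885 lower (14.3%), so the share of calls that were higher moved from 16.2% to 46.0%, with 1829 genes called on both scales. The median gene itself changed by -0.06 on the log2(TPM + 1) scale, on which all changes below are given unless another quantity is named. The 3 MI and 3 sham values did not overlap in 5945 genes (45.2%). Leaving out a single library moved the count of calls between 1027 (without MI prednisone replicate 1) and 3971 (without MI vehicle replicate 3, which enters only through the shared spread). It was 1041 without MI prednisone replicate 2 and 1219, 1146 and 1167 without sham prednisone replicates 1, 2 and 3.

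Properties of the libraries moved with the groups and touch the results below. In all 3 MI prednisone libraries, and in none of the other 9, signal was shifted along transcripts from the 5′ toward the 3′ end. This was measured on short annotated transcripts, those under 50% of the length of their gene's longest coding transcript, placed by their position along that transcript in 3 equal segments. The 916 short transcripts in the 3′ segment were higher in the MI prednisone libraries by a median of 1.20, 1.49 and 0.74 (replicates 1, 2 and 3) relative to the sham prednisone mean. The 3484 in the 5′ segment were lower, by -0.73, -0.63 and -0.44. In the 6 vehicle libraries and the 3 sham prednisone libraries the medians of the 3′ and the 5′ segments lay between -0.18 and 0.43. The 3′ median exceeded the 5′ median by 1.94, 2.13 and 1.18 in the MI prednisone libraries and by -0.06 to 0.24 in the other 9. The longest coding transcripts of the same genes (2613) sat between, at -0.18, -0.16 and -0.16 in the 3 MI prednisone libraries. Under vehicle the same medians for MI against sham were 0.28 in the 5′ segment and 0.15 in the 3′ segment.

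**Figure D1:**
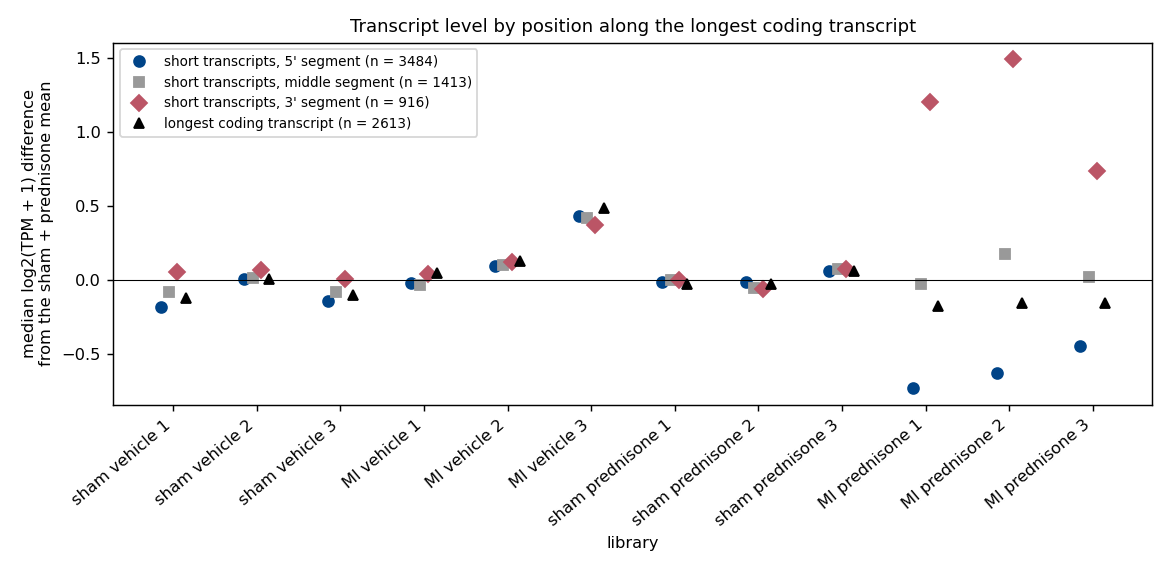
Each marker is the median over transcripts of the log2(TPM + 1) difference between 1 library and the mean of the 3 sham prednisone libraries, for short transcripts in the 5′, middle and 3′ segment and for the longest coding transcript of the same genes. The 3 MI prednisone libraries have the 3′ markers at 0.74 to 1.49 and the 5′ markers at -0.73 to -0.44, while in the other 9 libraries the markers of a library lie close together.

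Gene length moved with the change as well. Genes with transcripts under 1000 bases had a median change of 0.27 (1752 genes), and the median was 0.09 at 1000 to 2000 bases, -0.14 at 2000 to 4000, -0.36 at 4000 to 8000 and -0.55 at 8000 bases or longer. In the longest class 46.3% of 175 genes were called lower, against 2.91% in the shortest. Across 11894 genes, which are not independent replicates, Spearman's rho between length and change was -0.47 under prednisone and 0.03 under vehicle. A fit that removed the length trend from each library called 1515 of those 11894 genes (12.7%), 583 higher (4.9%) and 932 lower (7.84%), and 1000 of the calls were shared with the uncorrected fit. The part of the 3′ shift and of length in the results was not tested beyond these refits, and counts after the length correction and values of the most abundant transcript stand beside the results below. Among the called genes named below, those that lost the call without MI prednisone replicate 2 were Aif1, C4b, Ccl8, Cd163, Cdh5, Cidea, Col6a3, Comp, Crtap, Ctgf, Dnajb9, Fech, Gja1, Gpm6a, Kdr, Lamc1, Lgals3, Ltbp2, Mrps18b, Myh6, Mypn, Ncor1, Ndufa3, Ndufa5, Pdk4, Prss23, Psma3, Reck, S100a1, Scara5, Sfrp2, Thbs2 and Txnrd1. Among the MI libraries, replicate 3 was the least displaced: it was the highest of the 3 in 85.1% of the genes called lower (30.4% of all genes) and the lowest of the 3 in 84.4% of those called higher (44.9% of all genes). Mitochondrially encoded transcripts held 35.5%, 37.2% and 32.4% of the signal in the sham libraries and 24.6%, 21.6% and 35.9% in the MI libraries. Pearson correlations of log2(TPM + 1) within the sham group were 0.986 to 0.987 and within the MI group 0.963 to 0.971. TPM files carry no read depth, so the depth behind each value is unknown.

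Genes of airway and lung epithelium, a list chosen after their values were seen, stood far apart in single libraries. Scgb1a1, the secretoglobin of airway club cells, had the largest change of all tested genes (8.02, SE 3.19) and did not pass the test (limma adjusted p = 0.113). It was at 0.646, 0 and 1.83 TPM in the sham hearts and at 5.66, 9321 and 1312 TPM in the MI hearts. The sum of 10 such genes was 2.16, 0.75 and 6.54 TPM in the sham prednisone libraries and 8.15, 13959 and 1837 TPM in the MI prednisone libraries. In the vehicle arm it was 327, 157 and 2.07 TPM in sham and 532, 1.75 and 9268 TPM in MI hearts. In MI replicate 1, with a sum of 8.15 TPM, the 3′ median exceeded the 5′ median by 1.94, against 2.13 and 1.18 in replicates 2 and 3. The part of these cells' RNA in the results was not tested beyond leaving libraries out. Without the MI prednisone and MI vehicle libraries highest in these genes (replicates 2 and 3), a refit chosen after seeing the data, 2782 genes (21.1%) were called, 402 higher (3.06%) and 2380 lower (18.1%). The calls shared with the full set numbered 1975, and 128 of the 141 called genes named here kept their call.

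The tissue matched its label as myocardium. The summed level of 6 cardiomyocyte markers was 30126 to 34966 TPM in sham and 30926 to 34009 TPM in MI hearts. Fibroblast markers (5 genes) summed to 374 to 445 TPM in sham and 267 to 466 TPM in MI, and none of the 5 was called. Macrophage markers (5 genes) summed to 258 to 342 and 250 to 474 TPM, again with none called. Endothelial markers (4 genes) were at 155 to 180 TPM in sham and 136 to 151 TPM in MI, with 2 called lower, Cdh5 and Kdr. Pecam1 (-0.24) and Emcn (0.19) were not called. Of 34 endothelial and angiogenic genes 4 were higher and 5 lower (median 0.04), beside 2.73% and 14.1% of all genes. After the length correction 4 of 31 were higher and 2 lower. Their summed level was 1693, 1660 and 1920 TPM in sham and 2301, 2995 and 1949 TPM in MI. Adipocyte markers (3 genes) summed to 27.0 to 35.9 TPM in sham and 55.4 to 189 TPM in MI, and mesothelial markers (3 genes) stood at 33.2 to 39.6 and 15.2 to 33.6 TPM. Atrial markers (5 genes) summed to 1999 to 2709 TPM in sham and 4358 to 6191 TPM in MI, where Nppa alone was called. Myl4 (0.76), Myl7 (0.75) and Sln (0.74) also had every MI value above every sham value, while Bmp10 changed by -0.35. With only the 6 libraries compared, 8 of 15 atrial genes were higher and 1 lower, beside 664 and 2602 of 13158 genes. The main fit called 1 higher and 0 lower. The part of atrial tissue in the Nppa change was not tested. In bulk tissue a smaller number of cells of a type and less RNA per cell cannot be told apart.

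Among load and stress genes, 8 of 19 tested members were higher in MI hearts, 1 was lower and 10 did not pass the test, with a list median of 0.37 against -0.06 for all genes, and 10 rose and 0 fell after median-gene rescaling. After the length correction 6 of 17 rose and 0 fell, and without MI prednisone replicate 2 (1041 genes called, 7.91%, of which 87 higher, 0.661%, and 954 lower, 7.25%) 8 of 19 rose and 0 fell. Because several of them rose together, the 250 bases upstream of the RefSeq start (GRCm38.p6) of 4 muscle members are shown 5′ to 3′ on the coding strand, with the M-CAT element (CATTCC on either strand), the site bound by TEAD factors, in capitals.
Nppa, chr4:148000472-148000721, plus strand: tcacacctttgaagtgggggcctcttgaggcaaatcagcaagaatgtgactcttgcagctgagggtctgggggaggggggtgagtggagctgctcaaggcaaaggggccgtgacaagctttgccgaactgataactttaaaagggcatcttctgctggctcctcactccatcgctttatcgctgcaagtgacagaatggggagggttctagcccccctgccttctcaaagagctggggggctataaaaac
Acta1, chr8:123894776-123895025, minus strand: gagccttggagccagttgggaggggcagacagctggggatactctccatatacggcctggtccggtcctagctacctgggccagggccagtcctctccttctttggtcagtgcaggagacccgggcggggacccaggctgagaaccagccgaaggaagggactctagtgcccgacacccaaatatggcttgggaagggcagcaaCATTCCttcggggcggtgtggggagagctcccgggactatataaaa
Ankrd1, chr19:36119845-36120094, minus strand: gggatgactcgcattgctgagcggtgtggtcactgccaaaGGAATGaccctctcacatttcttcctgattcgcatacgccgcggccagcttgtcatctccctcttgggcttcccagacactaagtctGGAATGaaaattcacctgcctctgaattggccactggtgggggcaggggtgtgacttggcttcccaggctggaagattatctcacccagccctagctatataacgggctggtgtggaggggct
Myh7, chr14:54994550-54994799, minus strand: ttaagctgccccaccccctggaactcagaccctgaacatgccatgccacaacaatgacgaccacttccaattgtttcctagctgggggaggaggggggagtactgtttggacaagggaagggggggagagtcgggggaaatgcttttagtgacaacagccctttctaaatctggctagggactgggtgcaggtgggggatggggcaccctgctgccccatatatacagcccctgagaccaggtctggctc
The Acta1 window held 1 M-CAT match and the Ankrd1 window 2, while those of Nppa and Myh7 held 0. Nppb, whose window held 1 match, is not shown because its RefSeq start lies 112 bases from that of its listed transcript. Of the 19 list members with a RefSeq promoter 5 held a match, and of the 8 that rose 3 did, against 12.6% of all 32851 promoter windows. The CArG box, bound by serum response factor, was found in 3 of 19 windows, against 1.47% of all windows, and the GATA site AGATAA in 3 of 19, against 9.99%. A match is a description of letters and says nothing about binding.

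Nppb encodes B-type natriuretic peptide, the hormone that cardiomyocytes release under stretch. It stood at 142, 286 and 198 TPM in the 3 sham hearts and at 839, 706 and 713 TPM in the 3 MI hearts. All MI values lay above all sham values, and the change was 1.90 (SE 0.30, limma adjusted p = 0.00245). Nppa, which encodes atrial natriuretic peptide, was at 1029, 1102 and 1464 TPM in sham and 4251, 2870 and 2837 TPM in MI hearts, a rise of 1.46 (SE 0.33, limma adjusted p = 0.012). Each peptide gene has 1 listed transcript, so transcript choice does not enter these values.

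Of the foetal contractile isoforms, Acta1, the skeletal alpha-actin gene, was at 110, 115 and 142 TPM in sham hearts and 496, 313 and 400 TPM in MI hearts (change 1.69, SE 0.28, limma adjusted p = 0.00345). Myh7, the slow beta-myosin heavy chain, was at 44.7, 29.2 and 35.7 TPM in sham and 136, 154 and 101 TPM in MI hearts (change 1.81, SE 0.27, limma adjusted p = 0.00224). Its adult partner Myh6, named here after its values were seen, fell modestly from 3031, 3485 and 3404 TPM to 2178, 2454 and 2681 TPM (change -0.44, limma adjusted p = 0.0373), and kept the call in 9 of 26 alternative fits. Myh7 was called higher in all 26 alternative fits that gave it a value, and Acta1 and Nppb in all 27 of theirs.

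Of the genes that respond to cell stress, Gdf15, a secreted TGF-β family cytokine of tissue stress, was at 1.20, 1.58 and 0.622 TPM in sham hearts and 11.5, 6.13 and 5.25 TPM in MI hearts (change 1.97, SE 0.37, limma adjusted p = 0.00528). Nupr1, a stress-induced chromatin protein, was at 9.79, 8.59 and 9.29 TPM in sham and 30.8, 61.6 and 23.0 TPM in MI hearts (change 1.83, SE 0.36, limma adjusted p = 0.00635). The remaining load genes called higher, named after their values were seen, were Ankrd1, a stretch-responsive titin-binding protein (change 1.08), Tnfrsf12a, the receptor for TWEAK (1.05), and Rcan1, an inhibitor of calcineurin (0.80, and 1.79 in its most abundant transcript). Mypn, the sarcomeric protein myopalladin, was the single load gene called lower, at -0.57, and was not called after the length correction (-0.20). Among 32 integrated and mitochondrial stress response genes 4 rose and 5 fell, beside 2.73% and 14.1% of all genes. After the length correction 2 of 27 rose and 2 fell, beside 4.9% and 7.84% of all genes.

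**Figure D2:**
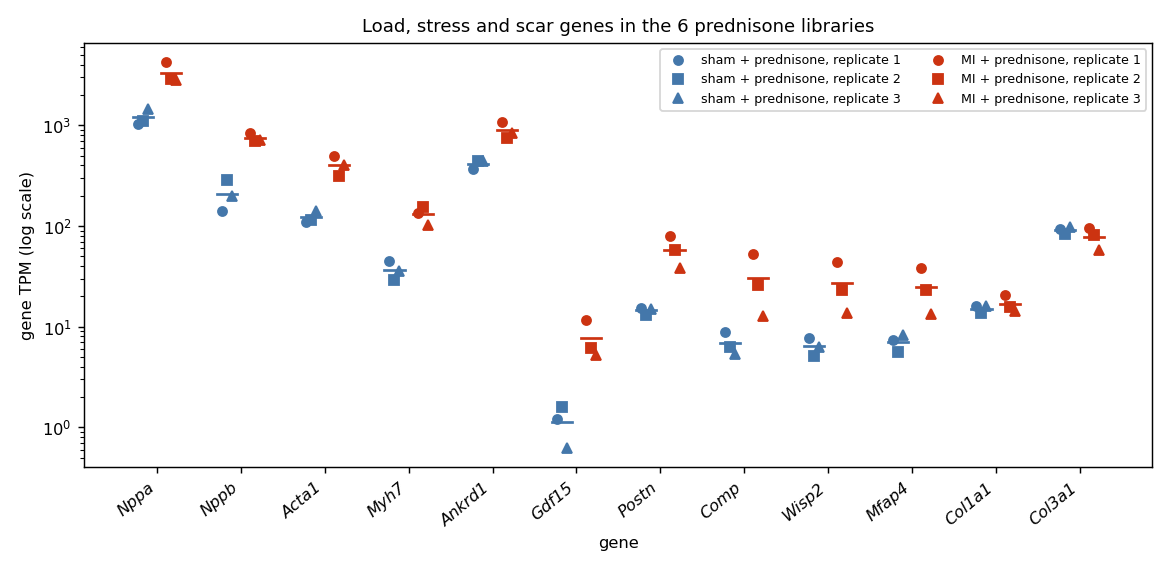
TPM on a log axis for each of the 3 sham (blue) and 3 MI (red) prednisone libraries, with marker shape giving the replicate number and a bar the mean. The 10 genes from Nppa to Mfap4 have no overlap between groups, as had 45.2% of all tested genes, while Col1a1 and Col3a1 overlap.

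Scar matrix genes divided by class. Of 28 matricellular and scar proteins 11 rose and 1 fell, with a median of 0.56, and after the length correction 11 of 27 rose and 0 fell. Without MI prednisone replicate 2 the rises numbered 5, and without both libraries highest in airway genes 7. Postn, the periostin of activated fibroblasts, was at 15.3, 13.1 and 15.1 TPM in sham hearts and 79.0, 57.5 and 37.9 TPM in MI hearts (change 1.87, SE 0.33, limma adjusted p = 0.00407). It was called in all 27 alternative fits. Comp, cartilage oligomeric matrix protein, was at 8.91, 6.22 and 5.34 TPM in sham and 53.1, 25.8 and 12.9 TPM in MI hearts (change 1.82, SE 0.49, limma adjusted p = 0.0283), and it lost the call without MI replicate 2 (limma adjusted p = 0.0858). Wisp2, a CCN family matricellular protein, was at 7.76, 5.17 and 6.34 TPM in sham and 44.2, 23.0 and 13.8 TPM in MI hearts (change 1.78, SE 0.41, limma adjusted p = 0.0137). In all 3 genes MI replicate 1 was the highest and replicate 3 the lowest of the MI hearts.

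Further members of the class, named after their values were seen, moved the same way. Thbs4, the thrombospondin of stressed muscle, rose from 1.63, 1.28 and 1.82 TPM to 11.8, 6.32 and 4.49 TPM (change 1.64, limma adjusted p = 0.00293). Cilp rose by 1.49 and Ctgf, the connective tissue growth factor, by 1.24 (limma adjusted p = 0.0171, and 0.0553 without MI replicate 2). The single member lower in MI, also named after its value was seen, was Thbs2 (-0.53). Mfap4, a microfibril-associated glycoprotein, was at 7.31, 5.55 and 8.26 TPM in sham and 37.8, 23.0 and 13.4 TPM in MI hearts (change 1.58, SE 0.35, limma adjusted p = 0.0117), and it was 1 of 4 of 22 proteoglycan and elastic fibre genes that rose, with 1 lower. After the length correction 4 of 20 rose and 0 fell. Of 35 TGF-β pathway genes 1 rose and 7 fell, beside 2.73% and 14.1% of all genes. After the length correction 5 of 31 rose and 3 fell, beside 4.9% and 7.84% of all genes. The riser on the deposited TPM was Ltbp2, which sits in elastic microfibrils (1.49, limma adjusted p = 0.0213, and 0.08 without MI replicate 2). The receptor Bmpr1a fell by 1.16 as a gene and by 0.64 in its most abundant transcript, and the receptor Bmpr2 fell by 0.79 but was not called after the length correction (-0.17, limma adjusted p = 0.26). Sfrp2, a secreted Wnt modulator, rose by 1.62 with MI values of 21.3, 10.9 and 4.0 TPM, against 3.07, 2.18 and 2.49 TPM in sham (limma adjusted p = 0.0361), and lost the call without MI replicate 2 (limma adjusted p = 0.115).

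The fibrillar collagens themselves did not pass the test. Col1a1 was at 16.0, 13.6 and 15.9 TPM in sham hearts and 20.7, 15.7 and 14.4 TPM in MI hearts (change 0.14, SE 0.26, limma adjusted p = 0.771). Col3a1 was at 93.3, 82.6 and 98.3 TPM in sham and 94.6, 82.2 and 57.5 TPM in MI (change -0.25, SE 0.22, limma adjusted p = 0.486). Both groups overlapped in both genes. Of 22 collagen genes 2 were called higher and 0 lower, the median was -0.01, and 5 rose and 0 fell after the length correction. Timp1, the tissue inhibitor of metalloproteinases, had MI values of 15.9, 9.25 and 6.19 TPM above sham values of 3.79, 2.24 and 2.60 TPM, with a change of 1.49 that missed the threshold (SE 0.48, limma adjusted p = 0.0567). Of 22 fibroblast genes 1 rose (Lamc1) and 1 fell (Scara5), and 2 of 21 rose and 0 fell after the length correction. Of all genes 2.73% rose and 14.1% fell, and 4.9% and 7.84% after the length correction.

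Several called rises rested on short transcripts while the gene's main transcript fell. Vwf, von Willebrand factor of endothelial cells, rose as a gene from 21.4, 19.6 and 26.5 TPM to 63.1, 60.4 and 41.5 TPM (change 1.24, limma adjusted p = 0.00572). Its most abundant transcript, a coding transcript of 8834 bases, fell from 13.9, 12.7 and 14.9 TPM to 3.64, 3.94 and 3.40 TPM, while a non-coding transcript of 456 bases, centred 0.97 of the way along the coding transcript, went from 0.874, 0 and 1.22 TPM to 31.4, 28.6 and 22.0 TPM. Both collagen genes called higher had the same form. Col15a1 had a gene change of 0.78, but its most abundant transcript of 5172 bases changed by -1.08, and a transcript of 1755 bases at position 0.83 went from 0.0457, 0 and 0.699 TPM to 28.4, 25.1 and 20.4 TPM.

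Col6a3, a microfibrillar collagen, had a gene change of 0.71 and a change of -0.26 in its most abundant transcript. The laminin chains Lama5 (gene 1.18, most abundant transcript -0.60) and Lamc1 (0.50 and -1.03) and complement C4b (1.63 and -0.08) differed in the same way. Adamtsl2, a matrix regulator among the largest gene-level rises, changed by 2.19 as a gene and by 0.64 in its most abundant transcript. Pcdhgc4, the largest rise among the genes chosen by the naming rule (0.104, 0.126 and 0.245 TPM in sham, 16.9, 15.7 and 10.4 TPM in MI, change 3.70), belongs to a protocadherin cluster whose genes share their last exons, and nearly all its signal came from 1 transcript centred 0.74 of the way along, so the gene assignment is uncertain. Among the 58 named genes called higher, 22 had their largest TPM change in a transcript other than the most abundant, and 18 of those 22 transcripts lay in the 3′ segment. Among the 83 named genes called lower, 26 did, and of the 22 of these with a position 16 lay in the 5′ segment and 0 in the 3′ segment.

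Calcium handling genes fell as a group: 17 of 29 tested members were lower, 1 was higher, and the median was -0.49. After the length correction 10 were lower and 0 higher, and without MI prednisone replicate 2, 11 were lower. On the most abundant transcript with the length correction 4 of 27 were lower and 0 higher, beside 828 and 639 of 10789 genes. Slc8a1, the sodium-calcium exchanger that removes calcium from the cardiomyocyte, was at 55.2, 54.2 and 50.1 TPM in sham hearts and 7.73, 5.45 and 21.2 TPM in MI hearts. No MI value reached the lowest sham value, and replicate 3 was the least reduced. The change was -2.33 (SE 0.34, limma adjusted p = 0.00213), and -2.18 after the length correction, with a call in all 27 alternative fits. Ryr2, the calcium release channel of the sarcoplasmic reticulum, was at 78.4, 92.5 and 72.6 TPM in sham and 25.0, 23.0 and 42.6 TPM in MI hearts (change -1.44, SE 0.21, limma adjusted p = 0.00216). Its change was -0.77 after the length correction (limma adjusted p = 0.0385).

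Atp2a2, the calcium pump of the sarcoplasmic reticulum, named after its values were seen, was at 2825, 2967 and 3016 TPM in sham and 1144, 926 and 1752 TPM in MI hearts (change -1.26, SE 0.19, limma adjusted p = 0.00235). Camk2a, a calmodulin-dependent kinase, fell by 1.32. S100a1, a calcium-binding activator of the pump, was the single member called higher, at 0.38, and was not called after the length correction.

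Ion channel and junction genes fell in the same libraries. Of 25 potassium, sodium and pacemaker channel genes 14 were lower and 0 higher (median -0.51), 4 of 24 were lower after the length correction, and 7 without MI prednisone replicate 2. Of all genes 14.1% were lower, 7.84% after the length correction and 7.25% without that replicate. On the most abundant transcript with the length correction 6 of 24 channel genes were lower and 0 higher. Abcc9, the sulfonylurea receptor subunit of ATP-sensitive potassium channels, was at 44.7, 45.9 and 40.04 TPM in sham and 13.8, 10.8 and 23.9 TPM in MI hearts (change -1.45, SE 0.23, limma adjusted p = 0.00267), with -0.93 in its most abundant transcript. Scn4a, a sodium channel of muscle, fell by 1.84 as a gene and by 1.12 in its most abundant transcript. Kcnd2, a subunit of the transient outward current, fell by 1.25.

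Of 30 intercalated disc and dystrophin complex genes 18 were lower and 0 higher (median -0.55), with 5 of 27 lower and 1 higher after the length correction. Of all genes 14.1% were lower, and 7.84% after the length correction. On the most abundant transcript with that correction 8 of 24 of these genes were lower and 1 higher. Sgcd, the delta-sarcoglycan of the dystrophin complex, was at 19.2, 19.5 and 16.9 TPM in sham and 3.66, 5.34 and 6.42 TPM in MI hearts (change -1.69, SE 0.16, limma adjusted p = 0.00067). The change was -1.76 after the length correction. Ctnna3, an alpha-catenin of the disc, fell by 1.43. Dsp, desmoplakin, fell by 1.12 but was not called after the length correction (-0.62, limma adjusted p = 0.105). Gja1, connexin 43, named after its values were seen, went from 136, 151 and 151 TPM to 97.9, 65.8 and 122 TPM (change -0.65, limma adjusted p = 0.0429) and kept a call in 7 of 27 alternative fits.

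**Figure D3:**
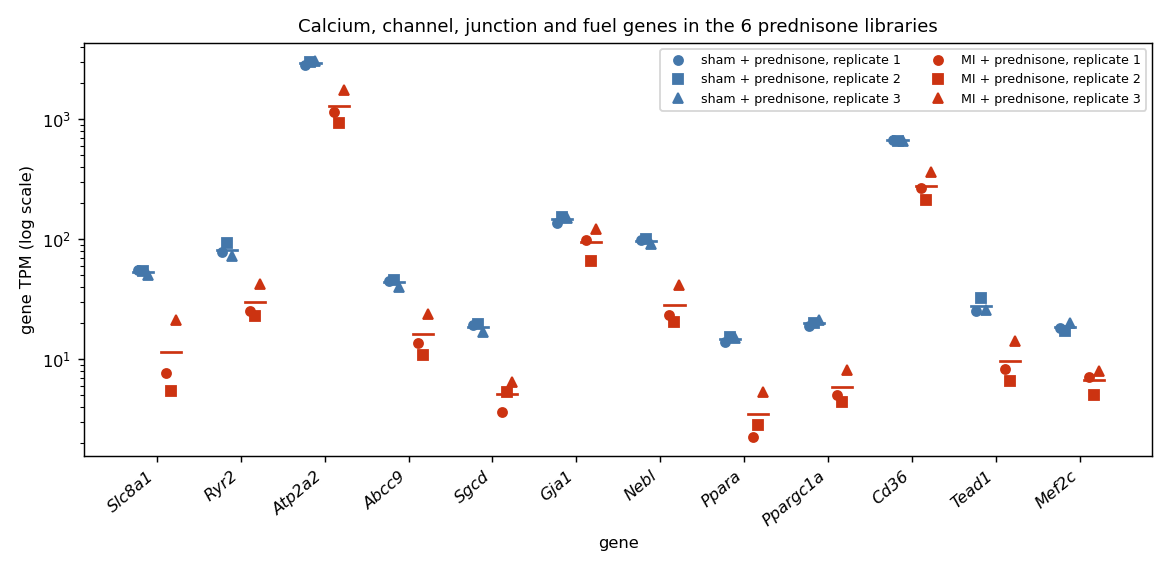
TPM on a log axis for each of the 3 sham (blue) and 3 MI (red) prednisone libraries, with marker shape giving the replicate number and a bar the mean. No gene shown has overlapping groups, and MI replicate 3 (triangle) is the highest of the 3 MI values in every gene shown. The genes were chosen for their calls or after their values were seen. Of all tested genes 45.2% had no overlap, and replicate 3 was the highest in 85.1% of the genes called lower.

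Of 34 sarcomere genes 6 were lower and 0 higher, near the 14.1% of all genes called lower, with a median of 0.00. After the length correction 1 of 33 was lower and 1 higher, beside 7.84% and 4.9% of all genes. Without MI prednisone replicate 2 only 1 was lower. Nebl, the thin-filament protein nebulette, was the member with the largest change, from 98.8, 101 and 91.8 TPM to 23.3, 20.5 and 41.3 TPM (change -1.81, SE 0.20, limma adjusted p = 0.00116).

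Among 24 cardiac transcription factors 11 were lower and 0 higher (median -0.48), and 6 of 21 were lower and 1 higher after the length correction. On the most abundant transcript with the length correction 1 of 20 was lower and 1 higher, beside 828 and 639 of 10789 genes. Myocd, myocardin, the coactivator of serum response factor, was at 12.9, 15.4 and 13.1 TPM in sham and 2.80, 2.75 and 5.57 TPM in MI hearts (change -1.70, SE 0.21, limma adjusted p = 0.00124), with -1.12 in its most abundant transcript. Tead1, which binds the M-CAT element shown above, was at 25.1, 32.1 and 25.5 TPM in sham and 8.29, 6.54 and 14.0 TPM in MI hearts (change -1.48, SE 0.23, limma adjusted p = 0.00245), with -0.70 in its most abundant transcript. Mef2c fell by 1.36 as a gene, and its most abundant transcript changed by -0.53.

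Of 32 fatty acid uptake and oxidation genes 21 were called lower and 0 higher (median -0.40), and 7 of 28 were lower after the length correction. On the most abundant transcript with that correction 8 of 28 were lower and 0 higher. Ppara, the nuclear receptor that drives fatty acid oxidation, was at 13.9, 15.3 and 15.0 TPM in sham hearts and 2.25, 2.85 and 5.38 TPM in MI hearts (change -1.87, SE 0.21, limma adjusted p = 0.00117). It was called in all 27 alternative fits, and its most abundant transcript changed by -1.78. Cd36, the fatty acid transporter, was at 671, 660 and 661 TPM in sham and 265, 210 and 363 TPM in MI hearts (change -1.28, SE 0.16, limma adjusted p = 0.00124). A transcript of 702 bases at position 0.13 made up much of that fall, from 195, 201 and 209 TPM to 4.71, 2.38 and 22.4 TPM, while the most abundant transcript changed by -0.83. Lpl, lipoprotein lipase, fell by 0.65 as a gene and by 0.25 in its most abundant transcript.

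Of 31 pyruvate and citrate cycle genes 20 were lower and 0 higher (median -0.50), with 6 of 29 lower after the length correction. On the most abundant transcript with that correction 5 of 29 were lower and 0 higher. Pdpr, the regulatory subunit of pyruvate dehydrogenase phosphatase, was at 26.4, 24.5 and 22.7 TPM in sham and 2.76, 2.40 and 8.04 TPM in MI hearts (change -2.39, SE 0.29, limma adjusted p = 0.00124). Pdk4, the kinase that shuts off pyruvate dehydrogenase and a glucocorticoid-induced gene, was at 246, 123.01 and 99.8 TPM in sham and 61.1, 45.5 and 77.6 TPM in MI hearts, with a change of -1.26 at the edge of the threshold (SE 0.39, limma adjusted p = 0.0498) that was called in 9 of 27 alternative fits. Mdh1, malate dehydrogenase, fell by 0.95 as a gene and by 0.12 in its most abundant transcript. Among 28 mitochondrial biogenesis regulators 11 were lower and 1 higher (Polrmt, 0.81, chosen after its value was seen), and 7 of 27 were lower after the length correction. Ppargc1a, which encodes PGC-1α, was at 19.0, 20.1 and 21.2 TPM in sham and 5.00, 4.39 and 8.08 TPM in MI hearts (change -1.66, SE 0.19, limma adjusted p = 0.00116), with -0.60 in its most abundant transcript.

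Of 37 nuclear complex I subunits 3 were higher and 1 lower (median 0.18), and 0 of 32 were called by limma after the length correction. At an unadjusted p under 0.05, 13 were higher and 1 lower on the deposited TPM, beside 30.5% of all genes in either direction. Ndufa3 (0.50) and Ndufa5 (0.41) were among the 3, and Ndufs1 fell by 0.62. None of these 3 genes was called after the length correction. Complexes II to V had 3 of 48 nuclear genes higher and 4 lower, and 1 of 44 higher and 1 lower after the length correction. Of all genes 2.73% were higher and 14.1% lower, and 4.9% and 7.84% after the length correction. Of 13 mitochondrially encoded transcripts 4 were lower and 0 higher, with 1 lower after the length correction. The largest fall among them was mt-Nd5, with 10928, 11450 and 10247 TPM in sham and 2500, 3001 and 5475 TPM in MI hearts (change -1.65, SE 0.26, limma adjusted p = 0.00239). Cytosolic ribosomal protein genes, with a median transcript length of 671 bases, had a median change of 0.45 with 7 of 86 higher and 0 lower. After median-gene rescaling 68 of 86 were higher, and after the length correction 5 of 81 were higher and 1 lower.

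**Figure D4:**
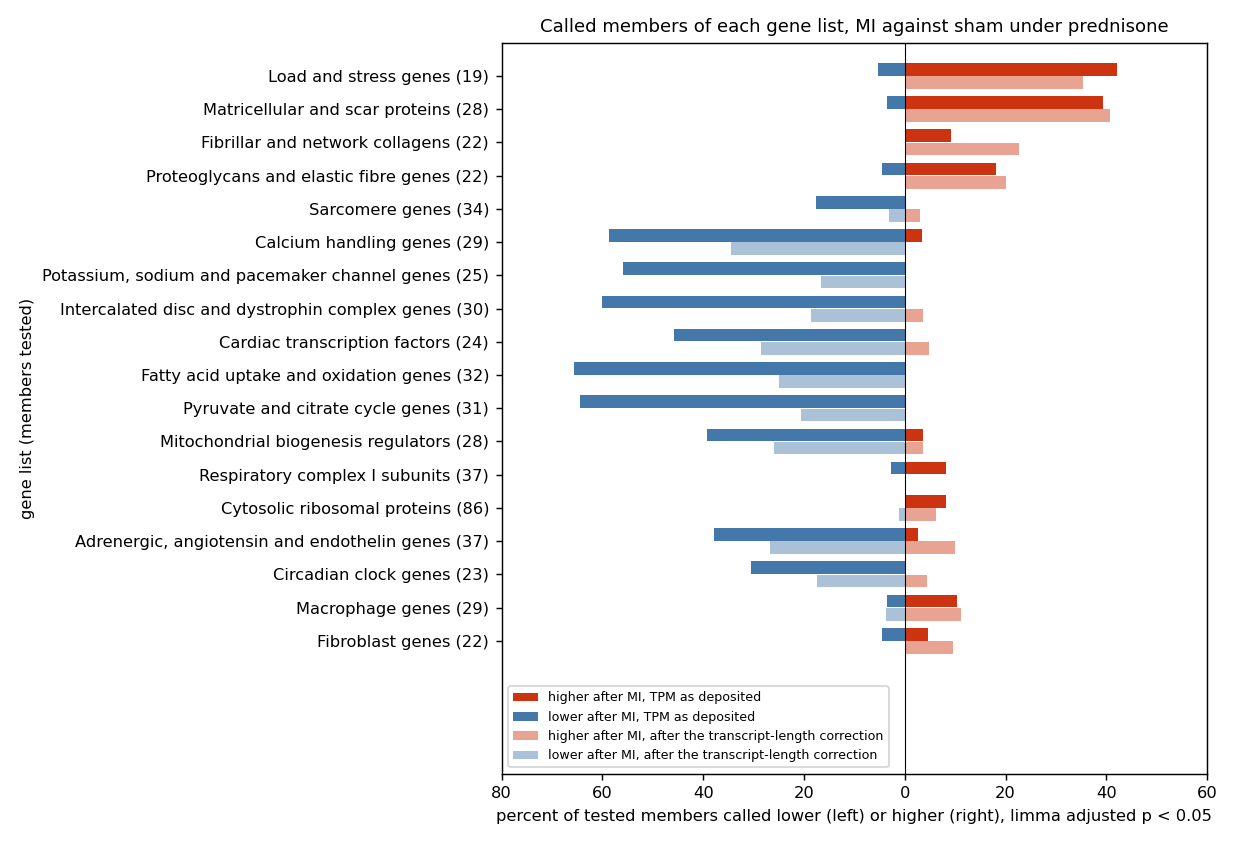
Percent of the tested members of each gene list called lower (left, blue) or higher (right, red) in MI against sham hearts under prednisone, on the deposited TPM (dark) and after the transcript-length correction (pale). The load and matricellular lists keep 6 of 17 and 11 of 27 members higher after the correction, while calcium genes go from 17 of 29 to 10 of 29 lower and fatty acid genes from 21 of 32 to 7 of 28.

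Of 26 glucocorticoid receptor targets 5 were lower and 0 higher (median -0.21), near the 14.1% of all genes called lower. The largest fall among them was in Klf9, a direct receptor target, at 29.7, 33.3 and 25.0 TPM in sham and 8.18, 7.11 and 16.1 TPM in MI hearts (change -1.47, SE 0.24, limma adjusted p = 0.00288). After the length correction 0 of 23 were lower by limma and 1 was higher. Klf9 and Fbxo32, both called lower on the deposited TPM, had no transcript length and so were not among the 23. At an unadjusted p under 0.05 on the deposited TPM 8 of the 26 were lower and 1 higher, beside 30.5% of all genes in either direction. Of 14 corticoid receptors and cofactors 6 were lower, and 3 of 13 after the length correction. On the most abundant transcript with the length correction 0 of 13 were lower and 2 higher. Nr3c1, the glucocorticoid receptor, was at 17.7, 16.9 and 17.3 TPM in sham and 8.72, 7.32 and 10.3 TPM in MI hearts (change -0.92, SE 0.18, limma adjusted p = 0.00757), with -0.31 in its most abundant transcript. Of 23 clock genes 7 were lower and 0 higher, and 4 were lower and 1 higher after the length correction. Those lower included Clock (-1.0) and Nr1d2 (-0.95). Of 37 adrenergic, angiotensin and endothelin genes 14 were lower and 1 higher, and 8 of 30 were lower and 3 higher after the length correction. Those lower included Adra1a, the alpha-1A adrenergic receptor (-1.31), and the adenylyl cyclase Adcy9 (-1.57, and -0.88 in its most abundant transcript).

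Of 29 macrophage genes 3 were higher, beside 2.73% of all genes, and 1 was lower (Cd163, chosen after its value was seen), and 3 of 27 were higher and 1 lower after the length correction. The risers were Lgals3, galectin-3 (9.29, 6.40 and 10.1 TPM in sham, 25.3, 37.0 and 19.5 TPM in MI, change 1.53, limma adjusted p = 0.0216, and 0.0979 without MI replicate 2), Aif1 (1.10, and 0.33 in its most abundant transcript) and Gpnmb (0.85). None of 30 lymphocyte, plasma cell, mast cell and neutrophil genes was called by limma on the deposited TPM, where 0 also passed an unadjusted p under 0.05, and 2 of 26 were higher after the length correction. Of 47 chemokine, cytokine and complement genes 3 were higher, Ccl8, Ccl12 and C4b, and 1 was lower, beside 2.73% and 14.1% of all genes. After the length correction 1 of 45 was higher, beside 4.9% of all genes. Of 20 adipocyte genes 1 was called higher and 2 lower, beside 2.73% and 14.1% of all genes. Their list median was 1.38, beside the adipocyte marker sums given above, and 0 of 18 were higher after the length correction. The higher one, Cidea, was at 16.9, 17.2 and 21.8 TPM in sham and 38.6, 108 and 44.3 TPM in MI hearts (change 1.57, limma adjusted p = 0.0344), and 1.12 without MI replicate 2 (limma adjusted p = 0.135).

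The design also asks whether infarction changed the heart differently under prednisone than under vehicle. Under vehicle 2100 genes (16%) were called, 1981 higher (15.1%) and 119 lower (0.904%), around a median of 0.39. This vehicle count was 120 and 168 without sham vehicle replicates 3 and 1, and 966 and 5631 without MI vehicle replicates 3 and 1. After median-gene rescaling it was 1023, 539 higher and 484 lower, and after the length correction 613, 309 higher and 304 lower. The vehicle counts of gene lists below come from the deposited TPM of all libraries alone. The difference between the infarction effects was called in 2797 of 13158 genes (21.3%), positive in 71 (0.54%) and negative in 2726 (20.7%), with a median of -0.48. That count fell to 1380 (10.5%) after median-gene rescaling, split 685 positive and 695 negative, to 250 of 11894 (2.1%) after the length correction and to 318 of 10789 (2.95%) with both the most abundant transcript and the length correction. It ranged from 1111 (without sham vehicle replicate 1) to 4520 (without MI vehicle replicate 1) when single libraries were left out, and was 1416 and 1610 without MI prednisone replicates 1 and 2, 1446, 1518 and 1343 without sham prednisone replicates 1, 2 and 3, and 1224 without sham vehicle replicate 3. Of the genes called in each treatment 320 were called in both, 161 in the same and 159 in the opposite direction. The genes higher in both numbered 106, which is 29.5% of the prednisone rises and 5.35% of the vehicle rises.

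Of 19 load genes 14 rose under vehicle and 8 under prednisone, beside 15.1% and 2.73% of all genes. Of their differences 4 were called, all negative, near the 20.7% of all genes with a called negative difference. The difference for Nppb was -0.42 (SE 0.42, limma adjusted p = 0.475), and for Nppa -0.22, Acta1 -0.32, Myh7 -0.71 and Postn -0.42, none of them called. A difference that misses the threshold does not show that a gene responded alike.

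Col1a1 changed by 1.87 under vehicle and 0.14 under prednisone, a difference of -1.73 (SE 0.37, limma adjusted p = 0.013), and Col3a1 by 1.69 and -0.25, a difference of -1.94 (SE 0.31, limma adjusted p = 0.0063). Of 22 collagen genes 20 rose under vehicle and 2 under prednisone, with 14 differences called, all negative. After the length correction neither difference was called (Col1a1 -0.94, limma adjusted p = 0.252, and Col3a1 -1.29, limma adjusted p = 0.07). Of 28 matricellular genes 23 rose under vehicle and 11 under prednisone, and 11 differences were called, all negative. Of 29 macrophage genes 22 rose under vehicle and 3 under prednisone, with 9 differences called, all negative. Of 47 chemokine and complement genes 28 and 3 rose, with 14 differences called, all negative. Among all genes 15.1% rose under vehicle and 2.73% under prednisone, and 20.7% had a called negative difference.

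The 3 most negative differences among called genes past the expression and overlap filters of the naming rule were in Olfr1033 (-2.62, limma adjusted p = 0.00395), Cd300ld3, a leukocyte surface receptor (-2.40), and Prss23, a serine protease (-2.36), each of which rose under vehicle and fell under prednisone. These 3 kept the call after the length correction (-2.43, -2.24 and -2.0), which removes a trend with length and not with position along a transcript. In Olfr1033 a transcript of 316 bases at position 0.04 changed by -158 TPM under prednisone, as did the whole gene. In Prss23 the largest fall under prednisone was in a transcript of 633 bases at position 0.16, and the most abundant transcript changed by -0.36. The most positive were in Pcdhgc4 (1.93), Lama5 (1.85) and Myh7b (1.30). As described above, Lama5 rested on short transcripts and the gene assignment of Pcdhgc4 is uncertain. Myh7b itself was not called under prednisone (0.66, limma adjusted p = 0.0583). Its largest TPM rise was in a transcript of 674 bases at position 0.96, and its most abundant transcript changed by 0.37.

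**Figure D5:**
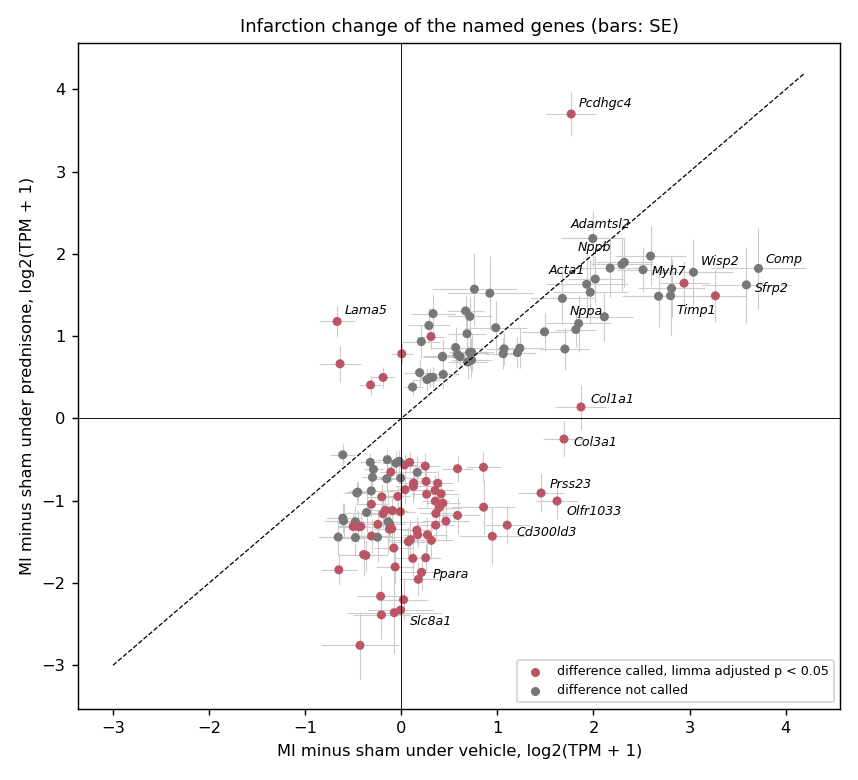
Infarction change (MI minus sham, log2(TPM + 1)) under vehicle on the x axis and under prednisone on the y axis for each named gene, with bars for the SE and a dashed line of equality. Nppa (1.68 and 1.46) and Nppb (2.32 and 1.90) lie close to the line, and Col1a1 (1.87 and 0.14) and Slc8a1 (-0.01 and -2.33) lie far below it.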

How the data were processed

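RNA from 12 mouse heart samples, extracted with Trizol and column purification, was made into stranded poly(A) mRNA libraries, per the labels' protocols. The deposited values are transcript-level TPM made by the authors, and Trimmomatic, HISAT2, kallisto and mm10 are named, per the submitters' processing notes; their roles and versions are not given in the sources used here. TPM sums to the same total in each library and carries no depth. Transcript values of a symbol were added up, the 13158 genes that reached 1 TPM in 3 or more libraries were kept, and log2(TPM + 1) was fitted with limma 3.58.1 (R 4.3.3), with 4 group means over all 12 libraries, a mean-variance trend and Benjamini-Hochberg adjustment over all tested genes at 0.05. With 3 against 3 samples an exact permutation test cannot go below 0.1. The p-values measure the spread between single mice of each group. Collection and sequencing batches are not given in the labels and cannot be told apart from the groups.

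Alternatives covered median-ratio rescaling, transcript-length correction (loess of each library's deviation on log length), the most abundant transcript per gene, pseudocounts, filters, the replicate number as a block and each library left out. Gene models came from GENCODE (GRCm38) and promoters from RefSeq (GRCm38.p6). Simulated data were drawn around the sham prednisone means with independent noise. They held no 3′ shift and no length trend, so their counts do not cover such trends. In them 70% of 100 genes changed by 1 and 97% of 100 changed by 2 (log2) were recovered. False calls numbered 4 among the unchanged of the 13158 genes. Named genes were the 8 largest called rises and falls without overlap and with a mean of at least 5 TPM, leaving out predicted genes, pseudogenes and mitochondrial symbols, up to 3 called members per gene list, 8 fixed genes and the 3 most positive and most negative differences between treatments. Other named genes are said to be chosen after their values were seen. A few genes that the rule chose are not reported here. The members and lists were chosen with earlier results of these data known.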

Additional observations from a re-analysis of the deposited data

Results flagged for a closer look

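For 73 of the named genes the infarction change itself differed between prednisone and vehicle (limma interaction, adjusted p under 0.05), 66 negatively and 7 positively. Most of these genes were chosen for their change under prednisone, which is a term of the difference, so the counts are a description. The values are the change under prednisone minus the change under vehicle on the log2(TPM + 1) scale. The most negative were Olfr1033 -2.62, Cd300ld3 -2.40, Lrrn4 -2.38, Prss23 -2.36, Nt5c1a -2.33, Slc8a1 -2.32, Gcom1 -2.29, Hipk2 -2.23, Pdpr -2.18, Lnpep -2.13, Ppara -2.08, Sgcd -1.95, Gpam -1.95, Col3a1 -1.94, Gpm6a -1.93, Myocd -1.82, Tead1 -1.79, Cilp -1.78, Celf2 -1.76, Nebl -1.74, Col1a1 -1.73, Atrx -1.71. A middle range held Ncoa2 -1.69, Gsk3b -1.65, Gabpa -1.58, Prkar2a -1.57, Klf9 -1.57, Mef2c -1.52, Bmpr1a -1.51, Adcy9 -1.5, Apc -1.48, Hspa4l -1.46, Reck -1.45, Clock -1.36, Nr3c1 -1.33, Thbs4 -1.30, Ppargc1a -1.30, mt-Nd5 -1.26, Prox1 -1.24, Ncor1 -1.23, Hdac9 -1.22. The smallest negative differences were Txnrd1 -1.20, Scn4a -1.19, Ulk2 -1.18, Bmpr2 -1.17, Cd36 -1.16, Acadsb -1.12, Ctnna3 -1.12, Vldlr -1.04, Hdac4 -1.03, Nfe2l1 -1.02, Aldh6a1 -0.97, Pfkfb2 -0.95, Dsp -0.95, Canx -0.91, Nr1d2 -0.91, Fbxo32 -0.91, Adra1a -0.89, Camk2a -0.87, Dnajb9 -0.83, Ppm1k -0.81, Mdh1 -0.75, Acsl1 -0.73, Fech -0.62, Mypn -0.60, Lpl -0.54. The positive differences were Cspg4 0.69, Ndufa3 0.69, Ndufa5 0.73, Cox4i2 0.78, Myh7b 1.30, Lama5 1.85, Pcdhgc4 1.93. The groups hold 3 samples each, so no sample was tested for standing apart within its group.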

How the results depend on the processing

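The count of 2213 genes called between MI and sham under prednisone became 3490 after median-ratio rescaling, 3335 with that rescaling and only the 6 libraries compared, 3648 without mitochondrial and globin transcripts, 1467 with the most abundant transcript and length correction, and 950 with the length correction and the replicate block. Leaving out single libraries gave 1027 to 3971. Correlations of deviations were -0.13 to 0.05 between samples of the same replicate number and -0.12 to 0.19 between other numbers. With 3 replicates these values cannot tell whether the numbers pair the samples. The replicate block alone gave 1901 calls. The count of 2797 called differences between treatments became 1044 after centring alone, 1380 after median-ratio rescaling, 318 with the most abundant transcript and length correction, 250 with the length correction and 97 with the replicate block added to it, and 1111 to 4520 when single libraries were left out. The causes were not tested. Of 141 called named genes 37 kept their call in every alternative that gave a value, and 16 changed sign in one. On the most abundant transcript the changes were C4b -0.076, Col15a1 -1.08, Col6a3 -0.26, Crtap -0.18, Eftud2 -0.23, Lama5 -0.60, Lamc1 -1.03, Ncor1 0.38, Psma3 -0.17 and Vwf -1.67. With its length correction they were Col15a1 -0.69, Crtap -0.20, Eftud2 -0.019, Hdac4 0.43, Lamc1 -0.53, Lpl 0.050, Mrps18b -0.038, Ncor1 0.83, Nr3c1 0.14, Psma3 -0.29, Txnrd1 0.15, Usp2 0.17 and Vwf -1.12. Depth is not given in TPM, so counting error could not be set.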
